A study of Mus musculus with 8 samples.

Results

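The genes described here are 9 genes grouped around the water, potassium and chloride transport of astrocyte endfeet, and some of them, such as Aqp1 and Drp2, are better known from other cells. They were chosen by symbol (Aqp4, Aqp1, Dag1, Dtna, Kcnj10, Mlc1, Hepacam, Drp2 and Clcn2), and all 9 were found among the 23284 genes of the deposited table. Transcripts were counted in cells sorted magnetically from whole brains of wild-type C57BL/6J mice with an antibody to GLAST, the glutamate transporter encoded by Slc1a3. The 4 libraries of postnatal day 0 (P0) are labelled radial glia and the 4 of postnatal day 8 (P8) astrocyte precursors, and no treatment, transgene or deletion is given for either group. The labels do not say whether the libraries of an age came from separate animals, and a p-value here sets a difference against library-to-library spread alone, which may be technical.

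Astrocytes surround the vessels of the brain with endfeet, whose membrane facing the vessel is packed with the water channel aquaporin 4 and the inwardly rectifying potassium channel Kir4.1. Both are held there by a dystrophin-type complex, in which dystroglycan spans the membrane and binds laminin, agrin and perlecan of the basal lamina outside, while dystrophin, dystrobrevin and syntrophin bind inside. MLC1, the adhesion molecule GlialCAM (the product of Hepacam) and the chloride channel ClC-2 form a second endfoot complex that takes part in chloride and volume regulation. In humans, mutations of MLC1 or HEPACAM cause a leukoencephalopathy with brain swelling.

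The promoters of a gene that rose (Kcnj10), one that did not pass the test (Dag1) and one that fell (Aqp1) are shown so that the 3 patterns can be read against their sequence. Each is the 250 bases before the RefSeq start (GRCm38.p6 table), 5′ to 3′ on the gene's strand, matched here to a single place in NCBIM37 (equivalent to mm9), the build of all coordinates below. Dag1 has 2 starts in that table, and only the first listed was used. Capitals mark a short motif of nuclear factor I (NFI), TTGGC or its reverse complement GCCAA.
Kcnj10, chr1:174271091-174271340, plus strand: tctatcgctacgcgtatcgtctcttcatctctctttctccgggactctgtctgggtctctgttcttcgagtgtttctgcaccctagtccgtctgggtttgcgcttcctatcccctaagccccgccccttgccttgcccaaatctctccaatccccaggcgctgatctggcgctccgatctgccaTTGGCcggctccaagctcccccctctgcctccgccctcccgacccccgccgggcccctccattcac
Dag1, chr9:108166290-108166539, minus strand: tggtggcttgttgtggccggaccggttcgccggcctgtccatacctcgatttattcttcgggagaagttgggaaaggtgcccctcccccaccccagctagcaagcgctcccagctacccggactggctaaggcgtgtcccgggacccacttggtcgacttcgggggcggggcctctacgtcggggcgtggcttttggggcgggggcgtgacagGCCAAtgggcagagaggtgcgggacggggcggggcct
Aqp1, chr6:55286043-55286292, plus strand: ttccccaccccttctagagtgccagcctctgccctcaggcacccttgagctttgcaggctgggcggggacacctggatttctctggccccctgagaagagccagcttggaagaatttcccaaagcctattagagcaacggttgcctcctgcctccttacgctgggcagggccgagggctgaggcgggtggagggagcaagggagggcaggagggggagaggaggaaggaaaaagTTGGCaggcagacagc

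Each of these promoters held 1 NFI motif, whichever way its gene went, at 66 bases before the start in Kcnj10, 37 in Dag1 and 16 in Aqp1. RefSeq windows were examined for 6 of the 9 genes, since Aqp4 and Dtna were left out beforehand and Drp2 had no window in the table. Of the 6, 5 held that motif, which 41.5% of the 32851 promoters in the table hold. The Clcn2 window held none. The windows of Hepacam, Mlc1 and Clcn2 lie mostly or wholly in annotated exons of the same genes, so they are not shown. A SOX-type motif (ACAAT or ATTGT, in 27.7% of promoters) was found only in the Clcn2 window, and an OTX-type motif (TAATCC or GGATTA, in 6.25%) in none of the 6. GC content was 62.0% in both Kcnj10 and Aqp1 and 67.6% in Dag1, against a median of 52.4%, and CpG pairs numbered 17, 5 and 21.

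Of the 9 genes, 6 rose from P0 to P8 (Aqp4, Kcnj10, Mlc1, Hepacam, Drp2 and Dtna), 2 fell (Aqp1 and Clcn2) and Dag1 did not pass the test. A call means an adjusted p under 0.05 in edgeR's quasi-likelihood test, with Benjamini-Hochberg adjustment over all 16808 genes tested. Calls were common in this comparison, with 49.5% of tested genes called, 24.5% higher and 25% lower at P8. The median log2 fold change of the 9 genes was 3.04, against 0.044 over all genes tested. For 8 of the 9 all P0 libraries lay on one side of all P8 libraries, which held for 47.2% of tested genes. All 9 passed the filter on low counts, and the smallest count of any of them in a library was 170.

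The libraries held between 30708719 and 94308235 counts. Slc1a3, the gene of the sort antigen, rose 14.9-fold from P0 to P8 (adjusted p = 2.21e-06 by edgeR). Markers of other cell types moved with age, and their part in the results was not tested. The summed level of 10 choroid plexus markers was 26839 to 64810 CPM at P0 and 206 to 3127 CPM at P8, and all 10 were called lower. The sums were 1638 to 2357 and 263 to 564 CPM for 10 endothelial markers (9 lower), and 5701 to 10779 and 506 to 1260 CPM for 10 pericyte and meningeal markers (6 lower). None of these 30 markers was at 0 in any library. Of 10 radial glia markers, 9 were called higher at P8 (sum 1748 to 2459 CPM at P0, 9056 to 10454 CPM at P8), and of 10 astrocyte markers 7 were higher and 1 lower (sum 1319 to 2241 and 9317 to 10958 CPM). Of the tested markers of neurons 10 of 10, of microglia 7 of 8 and of oligodendrocytes 7 of 9 were higher at P8. In such bulk samples, fewer cells of a type and less RNA per cell cannot be told apart.

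**Figure D1:**
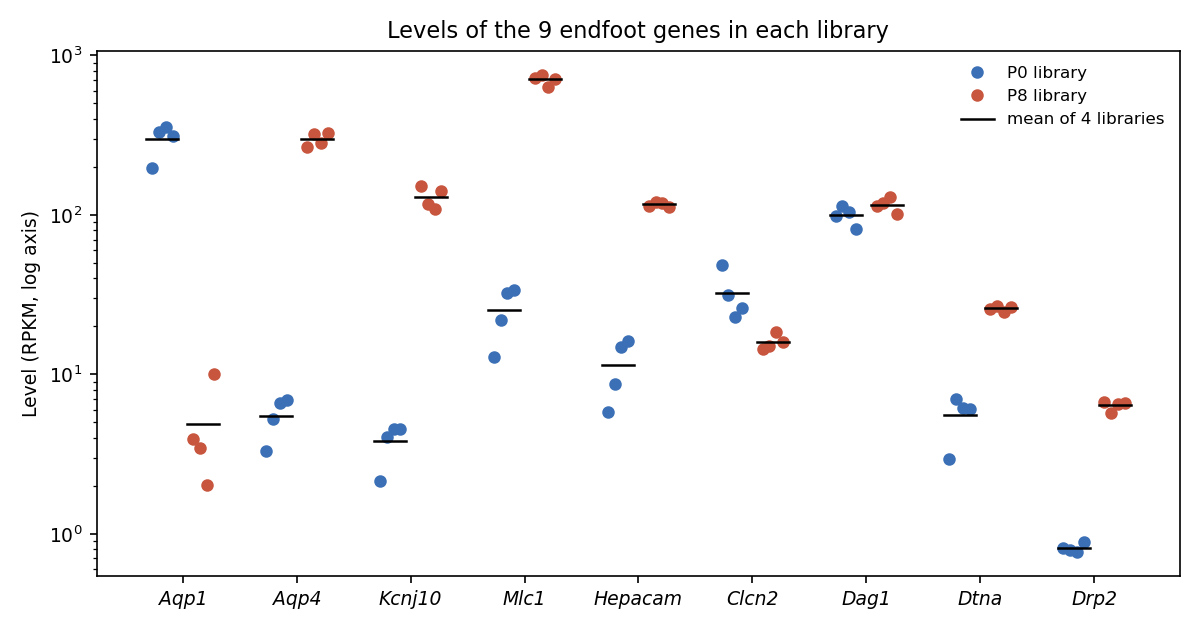
Level of each of the 9 genes in every library, in RPKM on a log axis (blue points P0, red points P8, black bars the mean of the 4 libraries of an age). The ages are apart for every gene but Dag1, and the 2 aquaporin genes move in opposite directions, with Aqp1 near 300.0 RPKM at P0 and Aqp4 near 298.8 RPKM at P8.

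The water channel genes Aqp1 and Aqp4 moved in opposite directions in these bulk samples. Levels are given here as RPKM, which the authors scaled to gene length and library total. Aqp1, which encodes the water channel of the choroid plexus and of red blood cells, lies on chromosome 6 from 55286426 to 55298549. It stood at 198, 332, 357 and 313 RPKM in P0 1 to P0 4 and at 3.92, 3.43, 2.03 and 10.1 RPKM in P8 1 to P8 4. The lowest P0 library was thus far above the highest P8 library, P8 4. In the test Aqp1 was 58.4-fold lower at P8 (log2 fold change -5.87 with SE 0.52; adjusted p = 2.06e-05 by edgeR). Its P8 mean in CPM was 13.4 with all 4 libraries and 8.63 without P8 4.

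Aqp4, the endfoot water channel gene, lies on chromosome 18 from 15547903 to 15562193. It stood at 3.30, 5.21, 6.56 and 6.90 RPKM in the P0 libraries and at 265, 320.3, 284 and 327 RPKM in the P8 libraries. Every P0 library had some Aqp4, at the level of a minor transcript, and P0 1 had the least. The gene was 57.7-fold higher at P8 (log2 fold change 5.85 with SE 0.27; adjusted p = 1.47e-06 by edgeR), and only 0.232% of tested genes had a rise at least as large. Within a library the log2 ratio of Aqp4 to Aqp1 moved from -5.79 ± 0.21 to 6.19 ± 0.89 (SD, n = 4; exact permutation test, two-sided, p = 0.0286, adjusted over 14 pairs 0.0333), and the ages did not overlap. With 4 libraries against 4, 0.0286 is the smallest p this test can give. Where a gene that rose is paired with a gene that fell, each with no overlap of the ages, the test must give that p. This holds for Aqp4/Aqp1, Dtna/Dtnb, Dmd/Utrn and Clcn2/Mlc1, so their p-values add nothing to the tests of the single genes.

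The sum over 12 aquaporin genes was 318 ± 73.6 RPKM at P0 and 311 ± 32.6 RPKM at P8 (SD, n = 4). Aqp1 made up 93.8% to 94.95% of that sum in the P0 libraries and 0.694% to 2.92% in the P8 libraries. Aqp4 made up 1.49% to 2.07% and 94.7% to 97.1%. Of the other 10 aquaporin genes 4 were tested, of which 1 rose and 2 fell, with a median log2 fold change of -0.98. Aqp9, a channel for glycerol and other small solutes as well as water, rose from 0.61 ± 0.37 to 6.62 ± 0.97 CPM (edgeR adjusted p = 0.000162). Aqp11, an intracellular aquaporin, fell from 12.2 ± 2.39 to 5.31 ± 0.59 CPM (edgeR adjusted p = 0.0011), and Mip, known as the aquaporin of the eye lens, from 4.85 ± 0.69 to 0.109 ± 0.0362 CPM (edgeR adjusted p = 3.88e-06). Exons of Mip overlap Gm17292 on the other strand, and the kit keeps no strand. Leaving out any 1 of the P0 libraries gave 2 higher genes in place of 1, with more genes passing the filter.

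Summed choroid plexus markers were at 947, 957, 206 and 3127 CPM in P8 1 to P8 4, so they and Aqp1 were both highest in P8 4 and lowest in P8 3. At P0 the order of the sums differed from that of Aqp1, which was lowest in P0 1 and highest in P0 3. The sums were 28951, 26839, 43201 and 64810.0 CPM in P0 1 to P0 4, lowest in P0 2 and highest in P0 4. Most of each sum was the marker Ttr (26909, 22940, 39405 and 61703 CPM). All markers of the list but Ttr and Prlr were lowest in P0 1, as Aqp1 was, while their highest library varied. All 5 tested erythroid markers were also called lower at P8, with a sum over 6 genes of 177 to 372 CPM at P0 and 57.5 to 129 CPM at P8. The part of either list in the level of Aqp1 was not tested. Of all 15441 genes searched, Car12, Clic6 and Krt7 had the profiles most like that of Aqp1, with a root mean square difference of centred log2 CPM over 8 libraries of 0.15, 0.21 and 0.24. Car12 encodes a membrane carbonic anhydrase, and Clic6, a gene of the choroid plexus marker list, a chloride channel-like protein. Car12 was at 452 ± 135 CPM at P0 and 7.40 ± 6.11 CPM at P8. Baalc, Hsd11b1 and Slc1a2, the gene of the astrocytic glutamate transporter GLT-1, were the genes most like Aqp4, with differences of 0.30, 0.34 and 0.35. Age sets most of these profiles, so likeness here describes the size of the change and the spread within an age.

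**Figure D2:**
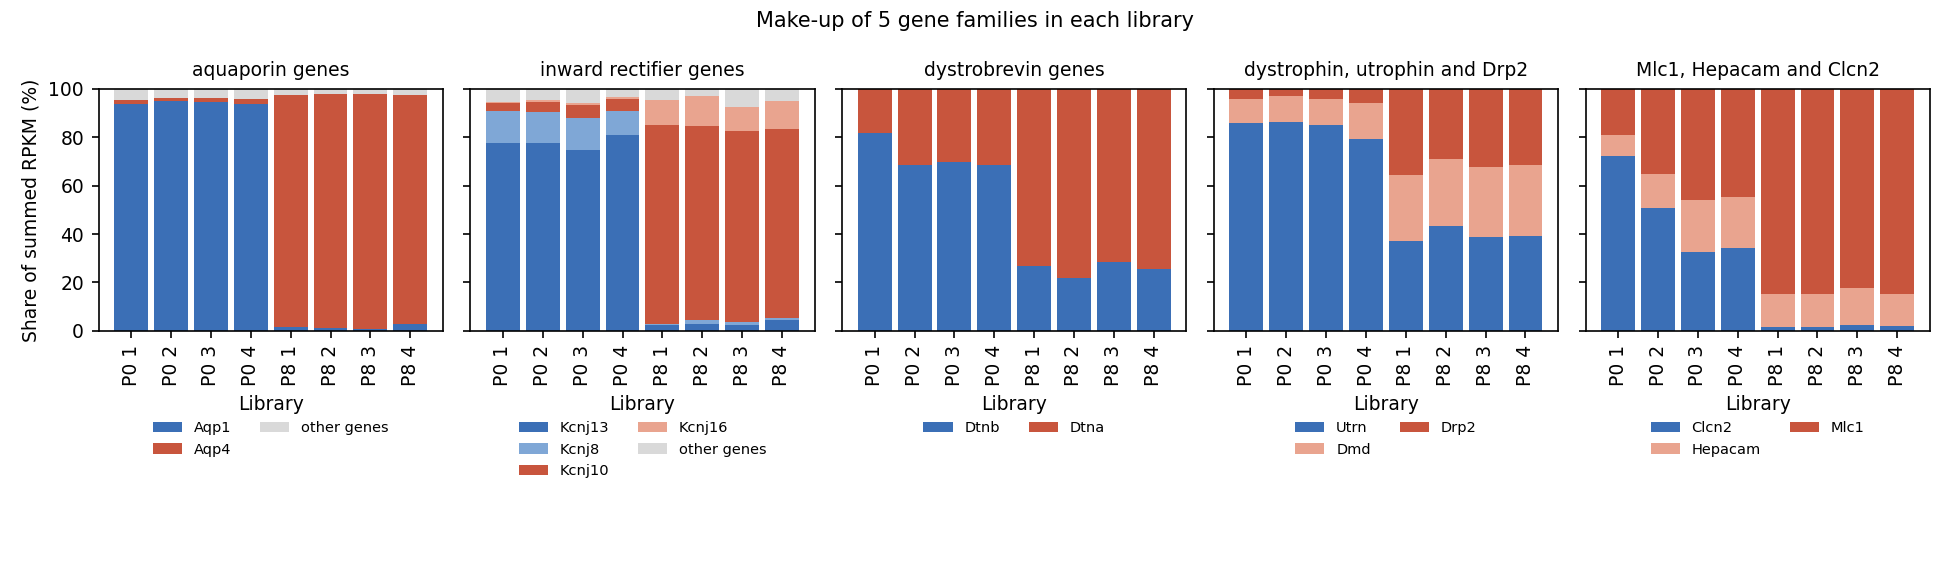
Make-up of 5 gene families in each of the 8 libraries, as the share (%) of the family's summed RPKM taken by each gene (stacked bars; grey, remaining genes). Aqp1 gives way to Aqp4, Kcnj13 to Kcnj10 and Kcnj16, Dtnb to Dtna, and Clcn2 to Mlc1, and P0 1 differs from the other P0 libraries in having the least Dtna (18.1%) and the most Clcn2 (72.2%) of their families.

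The potassium channel gene of the endfoot rose with its partner. Kcnj10, which encodes Kir4.1, lies on chromosome 1 from 174271341 to 174304216. It stood at 2.15, 4.05, 4.52 and 4.53 RPKM in P0 1 to P0 4 and at 152, 116, 109 and 140.1 RPKM in P8 1 to P8 4. P0 1 was the lowest of all and the ages were far apart. It was 36.0-fold higher at P8 (log2 fold change 5.17 with SE 0.28; adjusted p = 2.3e-06 by edgeR). Kcnj16, which encodes Kir5.1, a subunit that joins Kir4.1 in heteromeric channels, was at 0.327, 0.747, 0.725 and 0.633 RPKM in the P0 libraries and at 18.8, 17.7, 13.7 and 20.97 RPKM in the P8 libraries. It rose 31.2-fold (edgeR adjusted p = 2.86e-06). Among the 15441 genes searched, Kcnj16 had the profile most like that of Kcnj10, with a root mean square difference of 0.18, followed by the GABA transporter gene Slc6a11 (0.20) and Baalc (0.21).

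Kcnj10 stood above Kcnj16 by much the same factor at both ages. The log2 ratio of Kcnj10 to Kcnj16 was 2.64 ± 0.16 at P0 and 2.87 ± 0.16 at P8 (SD, n = 4; exact permutation p = 0.114, adjusted 0.123), a difference of 0.23 with overlapping ages. With 0.1 RPKM added before the log in place of 0.01 the difference was 0.40 and was called (exact permutation test, adjusted p = 0.0308). The larger added value weighs most on the low P0 levels of Kcnj16. Aqp4 rose more than Kcnj10. Their log2 ratio went from 0.53 ± 0.12 to 1.21 ± 0.30, and the ages did not overlap (exact permutation p = 0.0286, adjusted 0.0333).

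Other inward rectifiers went both ways. Of 13 tested, 4 rose, 3 fell and 6 did not pass, with a median log2 fold change of 0.60. Kcnj13, which encodes Kir7.1 and is also a choroid plexus marker, fell from 91.5 ± 12.6 to 6.39 ± 2.8 CPM (edgeR adjusted p = 8.98e-06). Its exons overlap Gigyf2 on the other strand, and the kit keeps no strand. Kcnj6, which encodes a G protein-gated channel of neurons, rose from 0.437 ± 0.322 to 8.92 ± 3.55 CPM (edgeR adjusted p = 0.000236). As a share of the summed RPKM of 15 inward rectifier genes, Kcnj13 took 77.8% ± 2.49 at P0 and 2.88% ± 0.985 at P8, and Kcnj10 took 4.32% ± 1.004 and 80.0% ± 2.01 (SD, n = 4). That sum was 87.1 ± 10.6 RPKM at P0 and 162 ± 23.7 RPKM at P8. Choroid plexus markers were lower and neuron markers higher (sum 29.7 to 103 CPM at P0, 106 to 695 CPM at P8) in the same libraries, and their part was not tested.

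The 3 genes of the MLC1 complex did not move together. Mlc1, the gene of a membrane protein of astrocyte junctions, lies on chromosome 15 from 88786314 to 88809437. It stood at 12.8, 21.98, 32.3 and 34.0 RPKM in P0 1 to P0 4 and at 722, 758, 631 and 713 RPKM in P8 1 to P8 4. It was the highest of the 9 genes in every P8 library. It rose 29.7-fold (log2 fold change 4.89 with SE 0.32; adjusted p = 4.7e-06 by edgeR). Hepacam, the gene of the adhesion molecule that brings MLC1 and ClC-2 to cell junctions, lies on chromosome 9 from 37174953 to 37194157. It stood at 5.77, 8.67, 14.8 and 16.3 RPKM in the P0 libraries and at 114, 121, 118 and 113 RPKM in the P8 libraries. Its P8 libraries were nearly level, with a coefficient of variation of 3.16%, against 43.8% at P0. It rose 10.9-fold (log2 fold change 3.44 with SE 0.31; adjusted p = 2.23e-05 by edgeR).

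Clcn2, which encodes ClC-2, went the other way. It lies on chromosome 16 from 20703037 to 20717819, where its exons overlap Fam131a and Polr2h on the other strand. The kit keeps no strand, so reads from such overlaps cannot be assigned to one gene, and no other of the 9 genes has such an overlap. Clcn2 stood at 48.2, 31.6, 22.98 and 26.1 RPKM in the P0 libraries and at 14.5, 15.1, 18.4 and 15.98 RPKM in the P8 libraries. P0 1 was highest, and the lowest P0 library, P0 3, was still above the highest P8 library, P8 3. The gene was 1.91-fold lower at P8 (log2 fold change -0.94 with SE 0.23; adjusted p = 0.00692 by edgeR), a change that lies among those of many genes, since 19.04% of tested genes had a log2 fold change at least as far down. Pericyte and meningeal markers were also highest in P0 1 (10779 CPM, the other P0 libraries 5701 to 8356 CPM), and their part in the level of Clcn2 was not tested.

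The ratios within a library set these genes apart. Hepacam to Mlc1 went from a log2 ratio of -1.17 ± 0.12 to -2.60 ± 0.12, so Hepacam rose less than Mlc1. Clcn2 to Mlc1 went from 0.39 ± 1.11 to -5.46 ± 0.26 (SD, n = 4 for both). In both pairs the ages did not overlap (exact permutation p = 0.0286, adjusted 0.0333). Clcn2 thus stood above Mlc1 in P0 1 and P0 2, below it in P0 3 and P0 4, and far below it in every P8 library. In the sum of the 3 genes, Mlc1 took 19.2% to 46.1% at P0 and 82.2% to 84.9% at P8, and Clcn2 32.8% to 72.2% and 1.69% to 2.40%. The sum itself went from 68.8 ± 5.93 to 838 ± 52.0 RPKM (SD, n = 4). The share of Clcn2 thus fell by more than its own level, which was 1.91-fold lower.

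The genes with profiles most like that of Mlc1 were Scg3, Dbx2 and Slc6a11, with differences of 0.20, 0.23 and 0.24. Scg3, which encodes a granin of secretory granules, was at 33.2 ± 17.3 and 780.2 ± 99.2 CPM. For Hepacam they were D030047H15Rik, Wnt7b, the gene of a secreted WNT ligand, and 1700071M16Rik, with differences of 0.17 to 0.18. For Clcn2 they were Slc41a1, a magnesium transporter gene, Scara3 and Tmod3, with differences of 0.12 to 0.14. Of 12 other tested genes of CLC and volume-regulated chloride channels, 3 rose, 3 fell and 6 did not pass, with a median log2 fold change of 0.14. Clcn3 and Clcn6, which encode exchangers of endosomes, rose from 73.9 ± 11.8 to 205 ± 11.7 CPM (edgeR adjusted p = 1.74e-05) and from 49.6 ± 8.51 to 111 ± 17 CPM (edgeR adjusted p = 0.000134). Lrrc8c, a subunit gene of the volume-regulated anion channel, fell from 32.6 ± 4.87 to 5.97 ± 1.07 CPM (edgeR adjusted p = 8.36e-06). Lrrc8a, the subunit that this channel cannot do without, was at 47.9 ± 12.9 and 47.2 ± 5.28 CPM (edgeR adjusted p = 0.785).

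**Figure D3:**
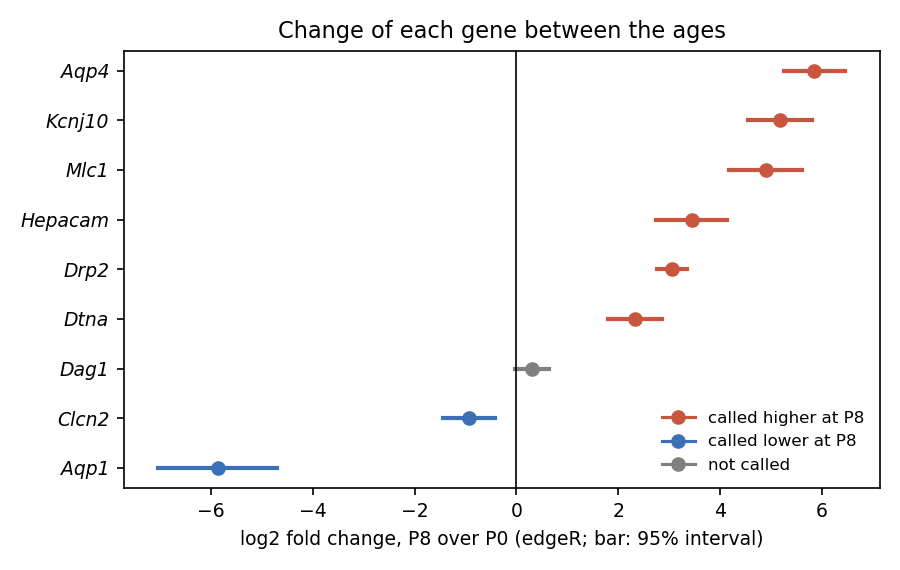
log2 fold change of each gene from P0 to P8 by edgeR, with its 95% interval (red called higher, blue called lower, grey not called). Aqp4 is highest at 5.85 and Aqp1 lowest at -5.87, while the interval of Dag1 runs from -0.03 to 0.63 and holds 0.

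The anchor of the complex differed least. Dag1, whose product is cut into the 2 chains of dystroglycan, lies on chromosome 9 from 108108286 to 108166255. It stood at 98.3, 114, 105 and 81.0 RPKM in P0 1 to P0 4 and at 114, 118, 130.1 and 101 RPKM in P8 1 to P8 4. The ages overlapped, and P0 4 and P8 4 were the lowest of their ages. The fold change was 1.23 with a 95% interval of 0.978 to 1.55 (edgeR adjusted p = 0.12), an interval that holds both no change and a rise of that size. Vars, Bicd2 and Chd9 had the profiles most like that of Dag1, with differences of 0.06 to 0.07. Aqp4 to Dag1 went from a log2 ratio of -4.22 ± 0.58 to 1.37 ± 0.25 (SD, n = 4; exact permutation p = 0.0286, adjusted 0.0333), so per length Aqp4 was below Dag1 in every P0 library and above it in every P8 library.

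Inside the membrane, the dystrobrevin genes exchanged places. Dtna, which encodes α-dystrobrevin, a partner of dystrophin and the syntrophins, lies on chromosome 18 from 23573916 to 23818215. It stood at 2.94, 6.96, 6.15 and 6.04 RPKM in the P0 libraries and at 25.9, 26.8, 24.5 and 26.6 RPKM in the P8 libraries. P0 1 was again the lowest. It rose 4.99-fold (log2 fold change 2.32 with SE 0.24; adjusted p = 4.54e-05 by edgeR). Dtnb, which encodes β-dystrobrevin, was at 13.3, 15.1, 14.4 and 13.2 RPKM and at 9.40, 7.50, 9.70 and 9.06 RPKM, and fell 1.49-fold (edgeR adjusted p = 0.00375). Dtna took 27.8% ± 6.48 of their sum at P0 and 74.4% ± 2.75 at P8, and the log2 ratio of Dtna to Dtnb moved by 2.96 with no overlap (exact permutation p = 0.0286, adjusted 0.0333). The genes most like Dtna were Gpm6a, Ednrb and Npas3, with differences of 0.10 to 0.12. Ednrb encodes the endothelin B receptor and went from 306 ± 96.4 to 1357 ± 131 CPM.

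Drp2, which encodes dystrophin-related protein 2, a partner of dystroglycan and periaxin in the Schwann cells of peripheral nerve, was the lowest of the 9 genes at P0. It lies on chromosome X from 130939090 to 130991112 and stood at 0.809, 0.793, 0.771 and 0.892 RPKM in P0 1 to P0 4 and at 6.67, 5.73, 6.49 and 6.62 RPKM in P8 1 to P8 4. The libraries of each age lay close together, with coefficients of variation of 6.51% and 6.88%. It rose 8.25-fold (log2 fold change 3.04 with SE 0.13; adjusted p = 1.47e-06 by edgeR). The sum of 5 Schwann cell markers was 28.8 to 43.4 CPM at P0 and 15.8 to 24.7 CPM at P8, and Prx, the periaxin gene, was at 12.7 and 5.90 CPM and was called lower. One of them, Gldn, was called higher, from 0.0516 to 1.18 CPM. Fads2, a fatty acid desaturase gene, Jam2 and Nrarp had the profiles most like that of Drp2, with differences of 0.13 to 0.16. Within a library, both intracellular partners gained on Dag1, Dtna from a log2 ratio of -4.23 ± 0.57 to -2.15 ± 0.20 and Drp2 from -6.90 ± 0.30 to -4.18 ± 0.20, with no overlap of the ages (SD, n = 4; exact permutation p = 0.0286, adjusted 0.0333).

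The transcripts of dystrophin and its relatives also changed in proportion to each other. Dmd, the dystrophin gene, was at 1.95, 3.01, 2.05 and 2.35 RPKM at P0 and at 5.09, 5.43, 5.89 and 6.15 RPKM at P8, and rose 2.55-fold (edgeR adjusted p = 7.88e-05). Utrn, the gene of its relative utrophin, was at 17.02, 24.3, 16.2 and 12.3 RPKM and at 6.96, 8.59, 7.82 and 8.25 RPKM, and fell 2.08-fold (edgeR adjusted p = 0.00159). The log2 ratio of Dmd to Utrn went from -2.87 ± 0.33 to -0.49 ± 0.12 with no overlap (SD, n = 4; exact permutation p = 0.0286, adjusted 0.0333). By RPKM, Utrn thus stayed above Dmd at both ages. RPKM uses a single length per gene (13852 bases for Dmd, 12382 for Utrn). Dmd has 16 annotated transcripts, which the counts per gene do not tell apart, so the order of the transcripts themselves was not tested. The sum of Dmd, Utrn and Drp2 was 20.6 ± 5.31 RPKM at P0 and 19.9 ± 0.953 RPKM at P8. Drp2 made up 4.17% ± 1.19 and 32.1% ± 2.73 of it.

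Of 15 tested genes of the dystrophin complex outside the 9, 4 rose, 5 fell and 6 did not pass, with a median log2 fold change of 0.45. The count of rises was 2 without P8 3. Sgcb, the gene of β-sarcoglycan, rose from 40.8 ± 4.31 to 107 ± 9.53 CPM (edgeR adjusted p = 1.96e-05). Sntb2, the gene of a β-syntrophin, fell 10.4-fold from 48.4 ± 15.2 to 4.40 ± 0.90 CPM (edgeR adjusted p = 8.81e-06). Sgcd, the gene of δ-sarcoglycan, fell from 7.11 ± 2.4 to 2.11 ± 0.52 CPM (edgeR adjusted p = 0.00164).

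Outside the membrane, the genes of the proteins that dystroglycan binds were mostly lower at P8. Of 10 tested, 9 fell and 0 rose, with a median log2 fold change of -1.96. Hspg2, the perlecan gene, fell from 2475 ± 1057 to 168 ± 46.5 CPM (edgeR adjusted p = 2.1e-05). The laminin chain genes Lamb1 and Lama5 fell from 487 ± 109 to 64.3 ± 19.4 CPM (edgeR adjusted p = 1.95e-05) and from 501 ± 181 to 76.6 ± 12.8 CPM (edgeR adjusted p = 3.19e-05). Agrn, the agrin gene, was the exception, at 854 ± 135 and 839.8 ± 146 CPM (edgeR adjusted p = 0.812). Endothelial, pericyte and meningeal markers, whose cells also make basal lamina, fell in the same libraries, and their part in these results was not tested.

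Of 16 tested genes for the sugar chains through which dystroglycan binds its ligands, 2 rose, 3 fell and 11 did not pass, with a median log2 fold change of 0.10. Pomt1 and Pomt2, whose products add the first mannose, rose from 26.6 ± 6.75 to 52.0 ± 6.68 CPM (edgeR adjusted p = 0.00197) and from 48.1 ± 4.14 to 90.9 ± 9.73 CPM (edgeR adjusted p = 0.000128). Exons of Pomt1 overlap Uck1, and those of Pomt2 overlap Gstz1, on the other strand. Gyltl1b, which encodes LARGE2, a relative of the enzyme that extends the laminin-binding chain, fell from 14.96 ± 5.09 to 0.386 ± 0.377 CPM (edgeR adjusted p = 0.000102), and its P8 mean was 0.200 CPM without P8 4. Large itself was at 53.0 ± 10.7 and 54.8 ± 6.44 CPM (edgeR adjusted p = 0.541). The count of rises was 4 without P0 4.

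**Figure D4:**
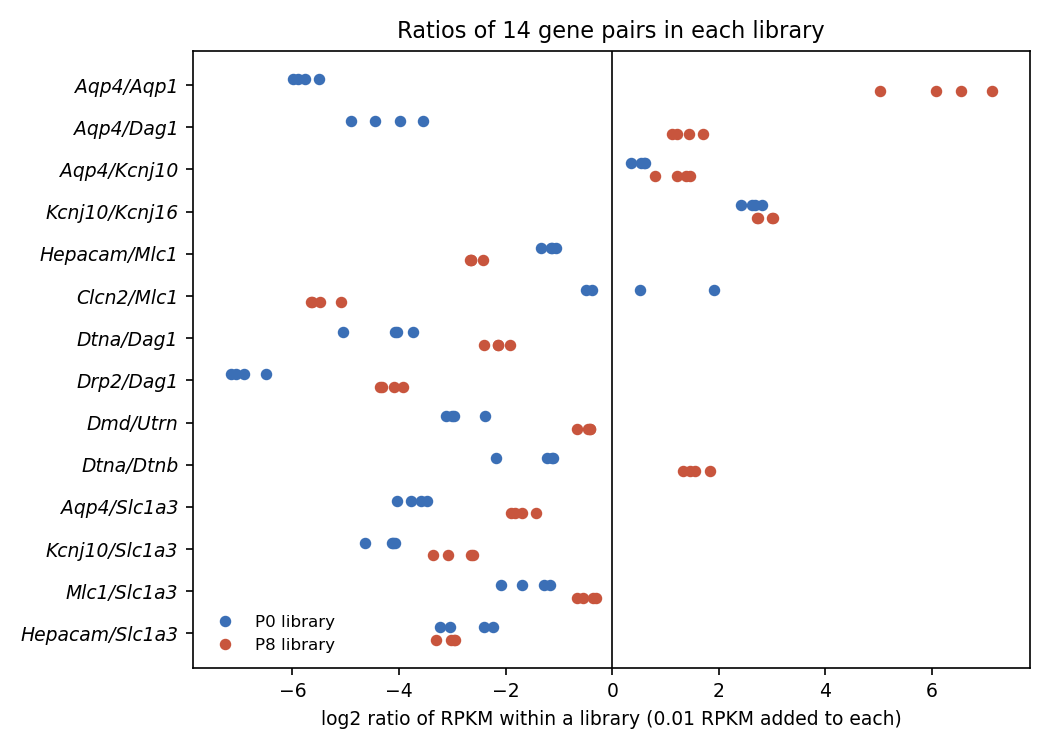
log2 ratio of 14 gene pairs within each library, from RPKM with 0.01 added to each value (blue P0, red P8; 0 marks equal levels). The ages are apart for 12 pairs and overlap for Kcnj10/Kcnj16 and Hepacam/Slc1a3.

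Against the transcript of the sort antigen, 3 of the 4 endfoot genes paired with it still rose. Dtna and Drp2 were not paired with it, and their log2 fold changes of 2.32 and 3.04 lay below that of Slc1a3 (3.89). Aqp1, Dag1 and Clcn2, which were not called higher at P8, were not paired with it either. The log2 ratio to Slc1a3 rose by 2.004 for Aqp4, by 1.32 for Kcnj10 and by 1.09 for Mlc1, each with no overlap of the ages (exact permutation p = 0.0286, adjusted 0.0333). For Hepacam it was -2.73 ± 0.48 at P0 and -3.07 ± 0.16 at P8 (SD, n = 4; exact permutation p = 0.314, adjusted 0.314). Of these 4 genes, Hepacam was the one whose rise could not be told from that of Slc1a3. Among 12 further perivascular astrocyte genes 6 rose, 5 fell and 1 did not pass, with a median log2 fold change of 0.40. Slc1a2 and Grm5, a metabotropic glutamate receptor gene, were among those that rose, the second from 4.88 ± 1.76 to 142 ± 7.61 CPM (edgeR adjusted p = 2e-06). Exons of Slc1a2 overlap Gm13872 on the other strand. Trpv4, an osmosensitive cation channel gene, and Slc12a2, the sodium, potassium and chloride cotransporter gene, fell from 125 ± 41.2 to 8.37 ± 3.49 CPM (edgeR adjusted p = 2.44e-05) and from 734 ± 204 to 113 ± 7.88 CPM (edgeR adjusted p = 1.03e-05). Both are also known from the choroid plexus, whose markers fell in the same libraries, and their part was not tested.

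The order of the 9 genes by RPKM differed between the ages. At P0 it ran Aqp1, Dag1, Clcn2, Mlc1, Hepacam, Dtna, Aqp4, Kcnj10 and Drp2. The neighbours Aqp1 and Dag1, Dag1 and Clcn2, and Kcnj10 and Drp2 did not overlap across libraries, and every neighbouring pair from Clcn2 down to Kcnj10 did. At P8 it ran Mlc1, Aqp4, Kcnj10, Hepacam, Dag1, Dtna, Clcn2, Drp2 and Aqp1. There Kcnj10, Hepacam and Dag1 overlapped from neighbour to neighbour, as did Drp2 and Aqp1, and the other neighbours did not.

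**Figure D5:**
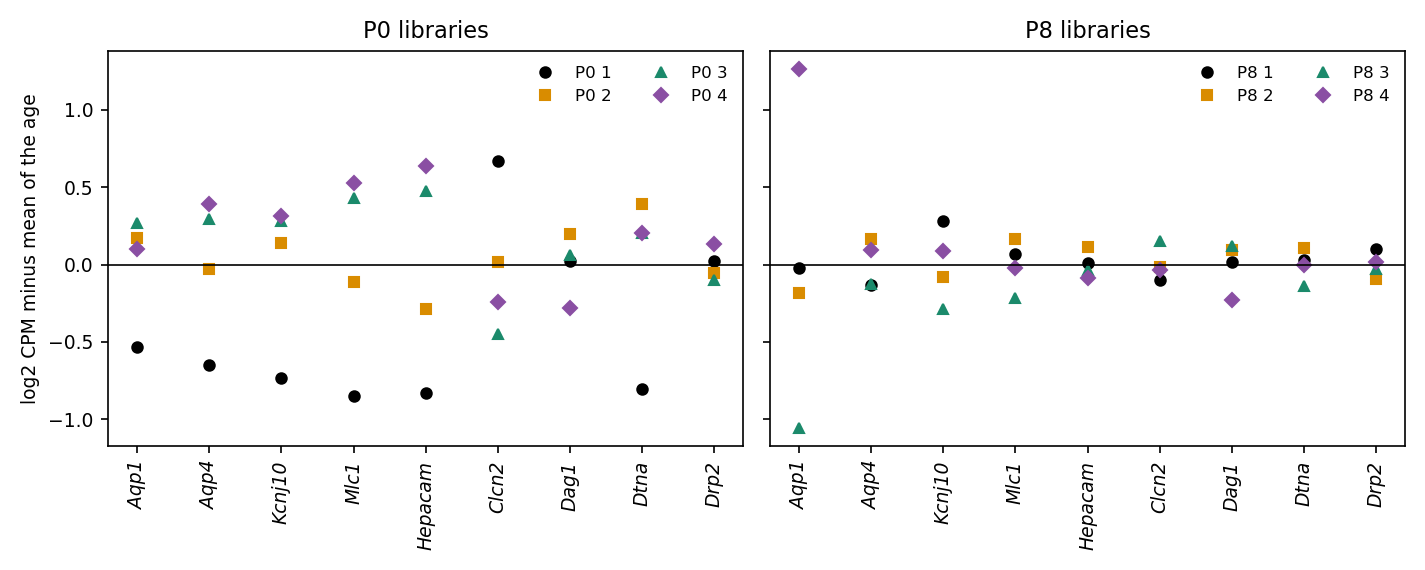
Deviation of each library from the mean of its age for the 9 genes, in log2 CPM (left P0, right P8; one marker shape per library). In P0 1, 6 genes are lowest and Clcn2 is highest, and at P8 the widest spread is that of Aqp1.

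Within P0, the lowest library was the same for 6 of the 9 genes. P0 1 was the lowest P0 library for Aqp4, Kcnj10, Mlc1, Hepacam and Dtna, by 0.65, 0.73, 0.85, 0.83 and 0.81 below the P0 mean on the log2 CPM scale, and also for Aqp1, at 0.54 below. P0 3 and P0 4 were both above the mean for these 6 genes, while in P0 2 Dtna was 0.39 above and Hepacam 0.29 below. Drp2, which also rose, stayed within 0.13 of its P0 mean in every library. In P0 1 the sort antigen Slc1a3 was the lowest of the P0 libraries (228 CPM, the others 299 to 331 CPM). The summed pericyte and meningeal markers were highest there, but so were the summed astrocyte markers (2241 CPM, the others 1319 to 1585 CPM) and the further perivascular astrocyte genes (9917 CPM, the others 5595 to 7840.0 CPM). The part of these in the levels was not tested. Without P0 1 the calls of all 9 genes stayed on the same side of the threshold, and the fitted log2 fold change of Mlc1 was 4.67.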

How the data were processed

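RNA was measured in 8 libraries, 4 of P0 and 4 of P8, from cells sorted with anti-GLAST microbeads. The labels' protocols name PicoPure for RNA isolation and the TruSeq RNA v2 kit, which keeps no strand. The submitters' processing notes list TopHat and mm9. No source used here states the counter or the annotation. The authors deposited whole-number counts, CPM (count over column total) and RPKM (CPM over gene length in kilobases) per gene and library, per the file headers. Total counts were 30708719 to 94308235, at which 3 counts, the limit that a count of 0 allows, are 0.0977 to 0.0318 CPM (counting error only). Within an age every pair of libraries differed by more than sampling noise (chi-square per degree of freedom at least 76.4).

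The test on the counts was that of edgeR 4.0.16, under R 4.3.3 (filterByExpr, TMM, glmQLFit, glmQLFTest, two-sided, no covariate, Benjamini-Hochberg over 16808 genes, called under 0.05), and tested on simulated data beforehand. Standard errors and 95% intervals are those implied by the F statistic. Ratios of 14 pairs used log2 RPKM with 0.01 added and the exact permutation test of SciPy 1.17.1 over the 70 splits. Likeness is the root mean square difference of log2 CPM centred on each gene's mean, over genes with a mean of at least 1 CPM at one age. The 9 genes, the lists and the pairs were chosen with earlier results of these data known. The text names the 9 genes, Slc1a3, Dmd, Utrn, Dtnb and Kcnj16, and part of a rule that takes up to 4 called genes of each list by size of change and the 3 genes most like each of the 9. Lrrc8a, Agrn, Large, Sgcb, Prx and Gldn were named after their values were seen. Alternatives were RLE, upper quartile and no scaling, 2 other filters, DESeq2 1.42.0, the replicate number as a block, and leaving out each library. The authors' own comparison was not used here. Results for a few genes of the lists are not reported here.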

Additional observations from a re-analysis of the deposited data

Results flagged for a closer look

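Among 56 groups of 4 values screened, 5 had 1 library standing apart from the other 3, where chance alone marks about 1 in 20. Slc1a3 was high in P8 2 (5029 CPM, nearest 3919). The log2 ratio of Hepacam to Mlc1 was high in P8 3 (-2.42, nearest -2.65), and that of Dmd to Utrn was low in P8 2 (-0.66, nearest -0.45). In P0 1 the log2 ratios of Dtna to Dtnb (-2.17, nearest -1.22) and of Kcnj10 to Slc1a3 (-4.65, nearest -4.13) were low.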

How the results depend on the processing

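The direction and call of all 9 genes were the same under all 15 alternatives to the edgeR test. Leaving out 1 library gave log2 fold changes of 5.67 to 5.98 for Aqp4, -6.47 to -5.60 for Aqp1, 0.21 to 0.37 for Dag1 and -1.07 to -0.66 for Clcn2. Genes called numbered 8321 with edgeR and 9124 with DESeq2.

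The replicate numbers gave no sign of pairing. Same-numbered libraries of the 2 ages deviated with correlations of -0.13, -0.06, 0.06 and 0.05, and differently numbered ones with -0.13 to 0.23. Such correlations cannot show whether same-numbered libraries shared a litter or a batch. With the number as a block, Aqp4 had a log2 fold change of 5.90 and Clcn2 of -0.87, and 7355 genes were called.

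For ratios, 7 libraries allow only 35 splits and a smallest exact permutation p of 0.0571, so no pair can be called without a library. The differences then ranged from 11.67 to 12.37 for Aqp4/Aqp1, 5.37 to 5.82 for Aqp4/Dag1, 0.60 to 0.82 for Aqp4/Kcnj10, -1.49 to -1.39 for Hepacam/Mlc1 and -6.15 to -5.35 for Clcn2/Mlc1. They ranged from 1.80 to 2.24 for Dtna/Dag1, 2.64 to 2.87 for Drp2/Dag1, 2.30 to 2.55 for Dmd/Utrn, 2.70 to 3.05 for Dtna/Dtnb, 1.90 to 2.08 for Aqp4/Slc1a3, 1.18 to 1.46 for Kcnj10/Slc1a3 and 0.92 to 1.22 for Mlc1/Slc1a3. With 0.1 RPKM added, Kcnj10/Kcnj16 differed by 0.40 and was called. At P0 Kcnj16 was at 0.327 to 0.747 RPKM and Kcnj10 at 2.15 to 4.53 RPKM. The added 0.1 RPKM is thus a larger part of the Kcnj16 value, which by itself lowers the P0 ratio.

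Among the pathway lists, the aquaporins had 3 higher and 4 lower genes with no filter, and the dystrophin complex had 2 higher genes under a filter of 1 CPM.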
